A study of Mus musculus with 8 samples.

Results

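The cytosolic ribosomal protein genes encode the protein subunits of the ribosome that translates nuclear mRNAs. Here they were taken by name: every non-control probe whose accession belongs to an *Rpl* or *Rps* gene with a number, to a stalk gene *Rplp0*, *Rplp1* or *Rplp2*, or to *Rpsa*, with the *Rps6k* kinases and pseudogene symbols left out. This gave 120 probes of 83 genes, 32 of the small and 51 of the large subunit, out of 41174 probes and 19096 named genes on the array. The RefSeq gene table holds 90 genes under this rule, and 7 of them had no probe.

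The hearts came from mouse embryos of the C57BL/6 strain by the labels, C57BL/6J by the study's methods, at E18.5, shortly before birth, from matings between heterozygous parents kept on chow and given no treatment. Total RNA of 4 wild-type (WT) hearts and of 4 hearts lacking SIRT1 through a germ-line knockout in the whole body (SIRT1 KO) was labeled with Cy3, and each heart was put on its own one-color Agilent mouse array, to ask which transcripts differ when the NAD-dependent deacetylase SIRT1 is absent from all cells. Embryos of both sexes were used, and the hearts were not split by sex here. Litters and parents of the single hearts are not given in the sources used here, so the p-values measure the spread between these 8 hearts.

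Each ribosome holds 1 copy of most of these proteins, and their genes are among the most strongly transcribed in growing cells. Many of the mRNAs begin with an uninterrupted run of pyrimidines, the 5′ terminal oligopyrimidine tract, through which mTOR signaling sets how well they are translated. The near-term heart is a rapidly growing muscle, and some members have muscle-, testis- or stress-associated paralogues that can take the place of the usual subunit.

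The region around the annotated start is printed for the 3 genes that passed. It is also printed for some of the members chosen by role, as paralogues or for a large difference. The aim is to show which of them carry a run of pyrimidines near that start. Each line gives 30 bases of the coding strand from RefSeq, assembly GRCm38.p6, and capitals mark a run of pyrimidines that starts with C, is at least 8 bases long and lies within 50 bases of the annotated start. Lines without capitals hold none and show the 30 bases around the start itself. A run in capitals need not be the terminal tract of the mRNA. Counted from the annotated start it begins at 28 in *Rpl37*, at 14 in *Rpl11* and at -12 in *Rpl7a*. A line without capitals does not show that the mRNA lacks a terminal tract.
Rpl7a (chr2:26910787-26910816, plus strand): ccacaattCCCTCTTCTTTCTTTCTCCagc
Rps6 (chr4:86857347-86857376, minus strand): aagtcgggCCTCTTTTTCgtgacgcctccc
Rpl11 (chr4:136053358-136053387, minus strand): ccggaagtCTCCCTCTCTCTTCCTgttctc
Rpl37 (chr15:5116633-5116662, plus strand): cgggggtgCTTTCTCTTCCggtctctttgg
Rpl38 (chr11:114668572-114668601, plus strand): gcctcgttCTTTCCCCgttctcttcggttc
Rpl22l1 (chr3:28805503-28805532, plus strand): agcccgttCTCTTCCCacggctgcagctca
Rps3a1 (chr3:86142654-86142683, minus strand): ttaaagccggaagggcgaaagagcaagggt
Rplp0 (chr5:115559452-115559481, plus strand): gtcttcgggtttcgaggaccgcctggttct
Rps4x (chrX:102189377-102189406, minus strand): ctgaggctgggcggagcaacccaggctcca

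Of the 83 member genes, 63 were matched in the RefSeq promoter table, with 75 starts, and 20 were not. A run of this kind lay near 59 of the 75 member starts (78.7%), against 28.8% of all 32851 starts in the table. Counted over all 300 bases of the table's window and on both strands, CGGAAG, the core of ETS-type motifs, was found at 61.3% of the member starts and at 16.9% of all starts. AANATGGCG, a YY1-type motif, was found at 13.3% and 2.38%. These are matches of letters, not sites shown to be used.

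All values below are log2 signals relative to the 75th percentile of their own array. A fold change is the SIRT1 KO mean minus the WT mean on that scale, and a probe passed when its adjusted p from limma, with Benjamini-Hochberg adjustment over the 25624 probes tested, was under 0.05. A level depends on the probe as well as on the transcript, so levels were compared between hearts, and the levels of different genes were not set against each other.

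All 4 WT arrays lay on one slide and all 4 SIRT1 KO arrays on another that was scanned on another day. Genotype, slide and day of scanning therefore cannot be told apart. The 75th percentile of the intensities lay between 934 and 1032 in the WT hearts and between 779 and 900 in the SIRT1 KO hearts. Neither *Sirt1* probe passed as lower in the knockout: one had a fold change of 0.54 (SE, its standard error, 0.115, limma adjusted p = 0.0332) and the other of -0.11 (SE 0.110, limma adjusted p = 0.590). Whether these probes lie within the deleted part of the gene is not given in the sources used here, and the directions below are those of the hearts labelled SIRT1 KO. All 10 cardiomyocyte markers were well above background in every heart, with a summed log2 signal of 10.49 to 10.61 in WT and 10.47 to 10.72 in SIRT1 KO. The summed signal of 10 erythroid genes was 9.0 to 9.12 in WT and 8.78 to 9.07 in SIRT1 KO, with *Hbb-bh1* above background on none of the arrays. Of the 7 erythroid genes tested 4 were higher and 3 lower, with fold changes from -0.68 to 0.92, and 1 passed, the embryonic globin gene *Hbb-y* as higher. That of 5 liver genes was 2.02 to 3.75 in WT and 2.29 to 5.91 in SIRT1 KO, the highest being SIRT1 KO replicates 1 (5.91) and 4 (4.88). All 6 endothelial markers were lower in SIRT1 KO hearts (median fold change -0.12) and none passed, with a summed signal of 5.22 to 5.43 in WT and 5.04 to 5.31 in SIRT1 KO, where only replicate 4 reached the WT range. The part of these cells in the results was not tested. In whole hearts, fewer cells of a type and less RNA per cell cannot be told apart.

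Most ribosomal protein transcripts differed little between the genotypes. Of the 120 member probes, 119 cleared the background well on 4 or more of the 8 arrays and were tested, and they cover all 83 genes. Of these, 3 passed the test, 2 higher and 1 lower in SIRT1 KO hearts, which is 2.52% of the members against 4.93% of all probes tested, 4% higher and 0.925% lower. The split depends on the scaling: 3 were higher and none lower with quantile normalization, 1 higher and 6 lower with arrays scaled to their medians, and 1 higher and 56 lower without scaling. Of all probes, 673 were then higher and 380 lower with quantile normalization, 687 and 1084 with arrays scaled to their medians, and 640 and 5711 without scaling. The log2 fold change was smaller than 0.25 in either direction for 88.2% of the member probes and for 75.1% of all probes. More members were lower than higher, 78 against 41, with a median fold change of -0.07, whereas 51.7% of all probes were higher and their median was 0.01. On 1 probe per gene, the one with the highest mean signal, 48 genes were lower and 35 higher, and the median was -0.03. Scaling the arrays to their medians moved the median of all probes to -0.12, and leaving out the scaling moved it to -0.21. The member median was then -0.20 and -0.29, which in both cases lay 0.08 below that of all probes, as it did on the main scale; with quantile normalization or cyclic loess it lay 0.04 below, with normexp 0.13 and with no filter on dim probes 0.17. Lower members outnumbered higher ones in every fit tried.

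**Figure D1:**
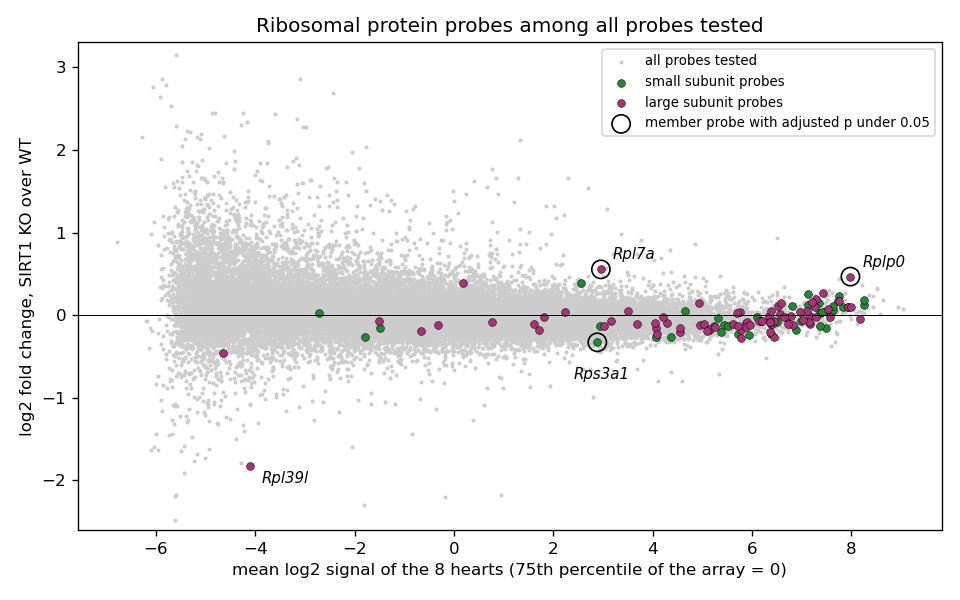
Log2 fold change (SIRT1 KO over WT) against the mean log2 signal of the 8 hearts for the 119 ribosomal protein probes tested, over all 25624 probes tested in grey. Circles mark the 3 member probes that passed the test; most members lie at the bright end and within 0.25 of the zero line, and the dim *Rpl39l* probe lies far below it at -1.82.

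An unadjusted p under 0.05 was reached by 22 member probes, 9 higher and 13 lower; of all probes tested, 21.5% reached it, 13.3% higher and 8.15% lower. The hearts of the 2 genotypes did not overlap for 15 member probes, 8 higher and 7 lower, or 12.6% against 13.8% of all probes, of which 8.54% were higher and 5.23% lower. Both counts lie near the background and say nothing particular about the members. By subunit, 19 small-subunit probes were higher and 24 lower (median -0.05), and 22 large-subunit probes were higher and 54 lower (median -0.07). On 1 probe per gene, 16 small-subunit genes were higher and 16 lower (median 0.00), and 19 large-subunit genes were higher and 32 lower (median -0.03).

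*Rpl7a* encodes a large-subunit protein and has 3 probes. On one of them (A_52_P548790) the log2 signals were 2.79, 2.63, 2.62 and 2.69 in the WT hearts and 3.22, 3.27, 3.38 and 3.07 in the SIRT1 KO hearts. Every SIRT1 KO heart lay above every WT heart. The signal rose by a log2 fold change of 0.55, a 1.47-fold difference (SE 0.0857, limma adjusted p = 0.00826). It passed in all 20 other fits tried, with fold changes between 0.33 and 0.61. The brightest probe of the same gene (A_52_P436206) gave 8.20, 8.13, 8.15 and 8.34 in WT and 7.99, 8.14, 8.37 and 8.14 in SIRT1 KO hearts, where the genotypes overlap (fold change -0.05, SE 0.0951). The remaining probe (A_51_P359862) also overlapped, with a fold change of -0.12 (SE 0.0867).

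*Rplp0* encodes the base of the ribosomal stalk, which binds the translation factors and carries the proteins of *Rplp1* and *Rplp2*. Its brighter probe (A_51_P134602) read 7.74, 7.85, 7.75 and 7.81 in the WT hearts and 8.28, 8.38 and 8.10 in SIRT1 KO replicates 2 to 4, and the spot of SIRT1 KO replicate 1 was left out because the scanner software marked it as an outlier. The genotypes did not overlap among the 7 hearts measured. The signal rose by 0.47 (1.38-fold, SE 0.0900, limma adjusted p = 0.0272). With that spot kept, the fold change was 0.34 and did not pass, and in all the probe passed in 7 of the 18 other fits that gave it a value. The call was lost without WT replicate 1, 2, 3 or 4 and without SIRT1 KO replicate 2. The other *Rplp0* probe (A_52_P586574) read 6.58, 6.67, 6.66 and 6.70 in WT and 6.49, 6.59, 6.74 and 6.71 in SIRT1 KO hearts, which overlap (fold change -0.02, SE 0.0784).

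*Rps3a1* encodes a small-subunit protein. On its dimmer probe (A_51_P292357) the log2 signals were 3.09, 3.09, 3.03 and 3.0 in WT and 2.85, 2.66, 2.65 and 2.73 in SIRT1 KO hearts. All SIRT1 KO hearts lay below all WT hearts. The signal fell by 0.33 on the log2 scale (SE 0.0729, limma adjusted p = 0.0372). This call is fragile: it held in 9 of 20 other fits, and with 1 heart left out it passed in 1 of 8 fits, that without SIRT1 KO replicate 1. The brighter probe (A_52_P49886) read 6.07, 6.30, 5.95 and 6.12 in WT and 6.02, 6.14, 6.24 and 5.97 in SIRT1 KO hearts and overlapped, with a fold change of -0.02 (SE 0.0964).

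*Rps21*, a small-subunit gene, came just short of the threshold on one probe. That probe (A_52_P740562) read 2.35, 2.54, 2.34 and 2.26 in WT and 2.87, 2.78, 2.82 and 2.58 in SIRT1 KO hearts, which do not overlap (fold change 0.39, SE 0.0933, limma adjusted p = 0.0501). It passed in 7 of 20 other fits. Its brighter probe (A_51_P489959) read 6.98, 6.92, 6.98 and 7.01 in WT and 6.90, 6.85, 6.96 and 6.46 in SIRT1 KO hearts. The values overlap, and the fold change of -0.18 (SE 0.111) points the other way, with SIRT1 KO replicate 4 the lowest heart.

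**Figure D2:**
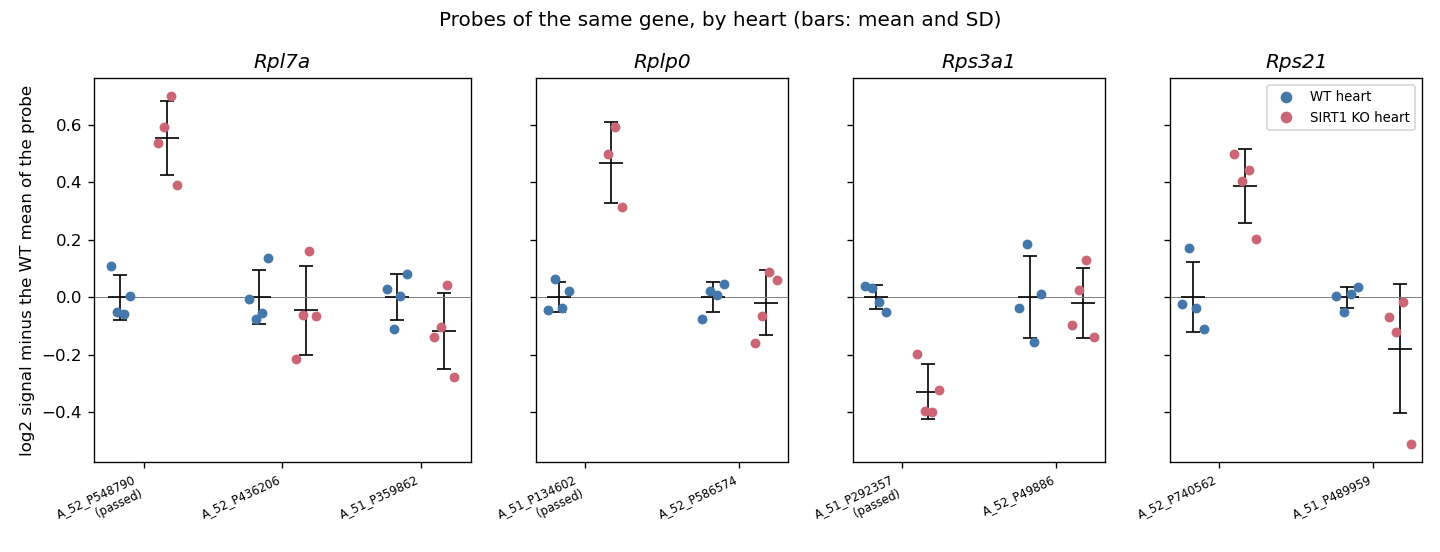
Log2 signal of each heart minus the WT mean of the same probe for *Rpl7a*, *Rplp0*, *Rps3a1* and *Rps21*, with WT hearts in blue, SIRT1 KO hearts in red and bars for the mean and SD (n = 4, or 3 for the SIRT1 KO hearts on the first *Rplp0* probe). In each gene the genotypes are apart on the first probe and overlap on the others.

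The probes of a gene were set against each other within each heart, for the 4 genes above, which were chosen after their values were seen. The difference between the passing *Rpl7a* probe and its brightest probe was larger in the SIRT1 KO hearts by 0.60, and that against its remaining probe by 0.67. It was larger by 0.44 for *Rplp0* and by 0.57 for *Rps21*. For *Rps3a1* it was -0.31. Since the genes were picked for this pattern, these differences are a description, with no test. Which transcripts each probe binds was not tested. The RefSeq table names 315 pseudogene loci after 63 of the member genes, 14 of them after *Rpl7a*, 1 after *Rplp0*, and none after *Rps3a1* or *Rps21*.

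Disagreement between probes was common among the members, whose median SE was 0.0896. How common it is among other genes with several probes was not counted. Several probes were tested for 30 of the genes, and in 15 of them the probes had fold changes of both signs. The median gap between the highest and the lowest fold change of a gene was 0.14, and in 8 genes it was above 0.25. Probes of *Rpl36a* and *Rpl7l1* lay close together, with gaps of 0.02 and 0.01. The 3 *Rpl36a* probes were between -0.08 and -0.07.

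The remaining large differences among well-measured members did not pass. *Rpl21*, a large-subunit gene with 15 named pseudogene loci, read 0.13, 0.00, 0.02 and -0.17 in WT and 0.43, 0.49, 0.62 and -0.03 in SIRT1 KO hearts on one probe (fold change 0.38, SE 0.140, limma adjusted p = 0.160). Its other probe had a fold change of -0.12. *Rpl37*, a large-subunit gene, read 5.92, 6.05, 5.80 and 5.90 in WT and 5.67, 5.60, 5.82 and 5.49 in SIRT1 KO hearts on its bright probe (fold change -0.27, SE 0.0915, limma adjusted p = 0.132). The genotypes overlapped through 1 SIRT1 KO heart. Its dim probe had a fold change of -0.45 (SE 0.296), which turned to 0.05 with another background correction.

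Among the genes chosen by role, the stalk genes beside *Rplp0* did not pass. *Rplp2* read 7.64, 7.72, 7.64 and 7.70 in WT and 7.88, 7.86, 7.94 and 7.72 in SIRT1 KO hearts, separated by a narrow margin (fold change 0.17, limma adjusted p = 0.207). *Rplp1* read 7.94, 8.01, 7.90 and 7.90 in WT and 8.25, 8.21, 8.15 and 7.55 in SIRT1 KO hearts. In 3 SIRT1 KO hearts *Rplp1* lay above all WT hearts and in replicate 4 below them, so its fold change was 0.10 with an SE of 0.149.

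*Rpl5* and *Rpl11* encode the proteins that bind 5S rRNA and, outside the ribosome, the p53 ligase MDM2. *Rpl11* read 7.22, 7.19, 7.05 and 7.31 in WT and 7.45, 7.39, 7.48 and 7.24 in SIRT1 KO hearts, overlapping through 1 SIRT1 KO heart (fold change 0.19, SE 0.0862, limma adjusted p = 0.233). *Rpl5* had a fold change of -0.02 (SE 0.0897). *Rps6*, whose protein is phosphorylated by S6 kinase downstream of mTOR, read 5.29, 5.28, 5.26 and 5.38 in WT and 5.09, 5.22, 5.22 and 5.17 in SIRT1 KO hearts. The groups did not overlap, but the difference of -0.13 (SE 0.0682) was small and did not pass (limma adjusted p = 0.319).

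*Rpsa*, the laminin receptor precursor of the small subunit, had a fold change of -0.18 (SE 0.108). *Rps19*, the gene most often mutated in Diamond-Blackfan anemia, had one of -0.13 (SE 0.115). *Rpl38*, needed in mice for patterning of the axial skeleton, had one of 0.07 (SE 0.0966). None of these passed. Of 14 members known as Diamond-Blackfan anemia genes, 7 were higher and 7 lower, their median was 0.00, none passed, and their fold changes ran from -0.21 to 0.19.

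Of 7 paralogues measured that can replace a usual subunit, 6 were lower in SIRT1 KO hearts, and so were 78 of 119 member probes. Of all probes, 51.7% were higher. The 6 include *Rpl39l*, which met the filter on dim probes through the WT hearts alone. None of the other paralogues passed on the main scale. Without scaling *Rps27l*, *Rpl36al* and *Rpl7l1* passed as lower, where 24.8% of all probes passed. *Rpl3l*, the muscle form of *Rpl3*, read -1.33, -1.58, -1.33 and -1.62 in WT and -1.56, -1.68, -1.44 and -1.46 in SIRT1 KO hearts. The values overlap, and the fold change was -0.07 (95% interval -0.29 to 0.15) against -0.09 (-0.29 to 0.12) for *Rpl3*. *Rpl22l1* had a fold change of -0.17 (-0.51 to 0.17), which rested on SIRT1 KO replicate 4 and was -0.0037 without that heart, and *Rpl22* of -0.07 (-0.29 to 0.15).

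*Rps27l*, a p53-responsive relative of *Rps27*, had a fold change of -0.23 (-0.50 to 0.04), and *Rps27* had one of 0.06 (-0.16 to 0.28). *Rpl36al* had a fold change of -0.20 (-0.45 to 0.05) and *Rpl36a* of -0.07 (-0.28 to 0.14). *Rpl7l1* had a fold change of -0.18 (-0.41 to 0.06) and *Rpl7* of 0.04 (-0.20 to 0.28). All these intervals include 0, and the difference between a paralogue and its partner was not tested.

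*Rps4x*, the X-linked form, read 6.98, 6.96, 7.06 and 7.02 in WT and 7.40, 7.18, 7.29 and 7.20 in SIRT1 KO hearts. All SIRT1 KO hearts were above all WT hearts (fold change 0.26, SE 0.0735, limma adjusted p = 0.0824), and the call was missed. *Rps4l* had a fold change of 0.05 (-0.18 to 0.28). *Rpl10*, whose relative *Rpl10l* had no probe, had one of 0.04 (-0.14 to 0.22).

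*Rpl39l* is a paralogue best known from the testis. Its measured probe (A_52_P386544) read -3.76, -2.37, -2.48 and -4.20 in WT and -4.46, -4.25, -5.32 and -6.07 in SIRT1 KO hearts, and was well above background in all 4 WT hearts and in 2 of the 4 SIRT1 KO hearts. It thus met the filter on dim probes through the WT hearts alone, and part of the difference is taken against signals not well above background, so its values are given as a description. The genotypes did not overlap, although WT replicate 4 and SIRT1 KO replicate 2 nearly met. The fold change was -1.82, given with no test. It ran from -2.04 to -0.63 over the fits with all hearts kept and from -2.16 to -1.48 with 1 heart left out. Its second probe cleared the background well on none of the arrays and was the 1 member probe left untested. *Rpl39* itself read 6.43, 6.69, 6.42 and 6.54 in WT and 6.81, 6.71, 6.73 and 6.42 in SIRT1 KO hearts, which overlap (fold change 0.15, SE 0.104).

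**Figure D3:**
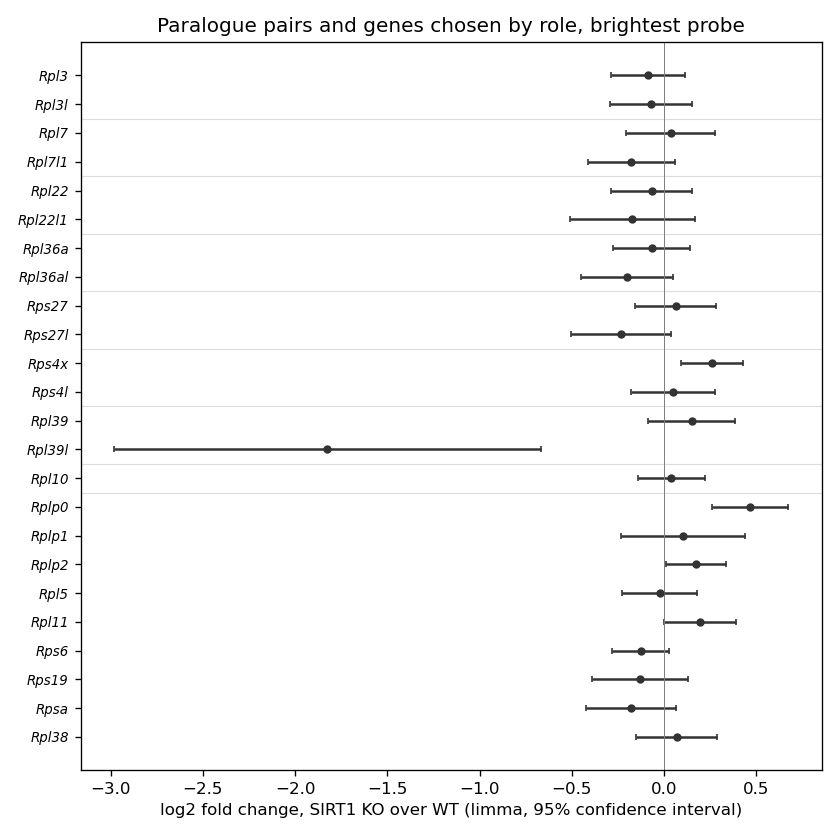
Log2 fold change (SIRT1 KO over WT) with its 95% confidence interval from limma for the paralogue pairs and for the genes chosen by role, on the brightest probe of each gene. *Rplp0* and *Rps4x* lie to the right of 0, and most intervals of the other genes include 0. *Rpl39l* stands alone at -1.82. Its probe met the filter through the WT hearts alone, so its interval is not read as a test.

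The fold change varied with how bright a member probe was, and brightness here is that of the probe as well as of the transcript. The members were split into 3 bands of nearly equal size by mean signal. In the dimmest band 8 of 40 probes were higher in SIRT1 KO hearts and the median was -0.13. In the middle band 6 of 39 were higher with a median of -0.09, and in the brightest 27 of 40 were higher with a median of 0.07. Of other probes in the same ranges of signal, 50.3%, 39.4% and 51.8% were higher, with medians of 0.00, -0.03 and 0.02. The brightest band also had the most higher probes with quantile normalization (27 of 40) and with cyclic loess (29 of 38). With cyclic loess the share of higher ones among the other probes was also largest there, at 47.6%, 52.1% and 61.0% from dim to bright, and with quantile normalization the shares were 44.9%, 48.8% and 44.7%. With arrays scaled to their medians 4 of 40, 1 of 39 and 10 of 40 were higher from the dimmest band to the brightest, and without scaling 3 of 40, 0 of 39 and 4 of 40. In both, the brightest band had the most higher probes, where 19.1% of other probes were higher with median scaling and 7.80% without scaling.

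The bright members at the top of this range, chosen after their values were seen, include *Rps23*, which lies at the decoding center. It read 8.17, 8.24, 8.08 and 8.21 in WT and 8.39, 8.36, 8.44 and 8.26 in SIRT1 KO hearts, without overlap (fold change 0.19, limma adjusted p = 0.179). *Rps12* had a fold change of 0.23 (limma adjusted p = 0.157) and *Rpl23a* of 0.27 (limma adjusted p = 0.132), also without overlap. Among members outside the brightest band, also chosen after their values were seen, *Rps15* in the dimmest had a fold change of -0.27 (limma adjusted p = 0.118) and *Rps10*, in the middle one, of -0.21 (limma adjusted p = 0.169). None of the 5 passed, and without scaling the fold change of *Rps23* turned to -0.03.

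Members moved together from heart to heart within a genotype. Over the 117 member probes with a value on every array, the median distance from the mean of the 8 hearts was 0.01, 0.06, -0.03 and 0.05 in WT replicates 1 to 4 and -0.05, -0.08, 0.11 and -0.08 in SIRT1 KO replicates 1 to 4. On this scale SIRT1 KO replicate 3 thus stood above the other SIRT1 KO hearts. It was the highest SIRT1 KO heart for 89 of the 117 probes (76.1%), against 29.9% of all probes. Its array had the lowest 75th percentile of the 8, 779, and the smallest share of probes well above background, 59.5%. The part of this in its level was not tested, and the shares of all probes are not matched for brightness. SIRT1 KO replicate 4 was the lowest of its genotype for 55 (47.0%), against 32.0% of all probes, and WT replicate 3 for 58 (49.6%), against 19.8%. Without SIRT1 KO replicate 3 the median fold change of the members was -0.10. The spread within a genotype was smaller for members than for probes at large, with a median SD of 0.0936 in WT and 0.124 in SIRT1 KO hearts against 0.130 and 0.154.

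**Figure D4:**
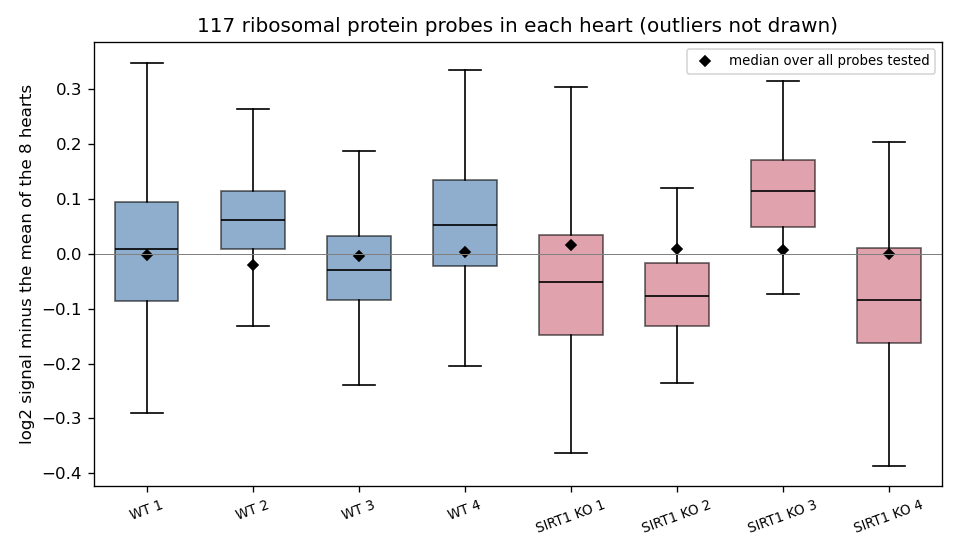
Log2 signal of the 117 ribosomal protein probes with a value on all arrays, as the distance from the mean of the 8 hearts, for each heart (line: median; box: middle 50% of probes; whiskers: the range without outlying probes), with the median over all probes tested as a diamond. SIRT1 KO replicate 3 has the highest median, 0.11, and the other SIRT1 KO hearts have the lowest, between -0.08 and -0.05.

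The fold changes were also set out by whether the pyrimidine run lay near the start, with no test of the difference. On 1 probe per gene, 20 of 53 genes with the run were higher and 33 lower (median -0.03), and of the 10 matched genes without it 5 were higher and 5 lower (median 0.01). *Rpl7a*, *Rps6*, *Rpl11*, *Rpl37*, *Rpl38* and *Rpl22l1*, printed above with the run, had brightest-probe fold changes between -0.27 and 0.19. *Rps3a1*, *Rplp0* and *Rps4x*, printed without it, ran from -0.02 to 0.47. The printed genes were chosen in part for their differences, and other members with the run, among them *Rpl39l* at -1.82, were not printed. These ranges therefore do not compare genes with and without the run. The passing probes of *Rpl7a* (0.55) and *Rps3a1* (-0.33) lie outside them. The array measures the amount of mRNA, and its translation was not measured.

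Genes that work with the ribosomal proteins were read from the same fit, on 1 probe per gene. Of 44 ribosome biogenesis genes, which make and assemble the subunits, 6 were higher and 38 lower in SIRT1 KO hearts, with a median of -0.12, and none passed at the adjusted threshold, although 12 (27.3%) had an unadjusted p under 0.05 in limma, 1 higher and 11 lower, against 21.5% of all probes, 13.3% higher and 8.15% lower. With arrays scaled to their medians 5 passed, all lower, against 6.91% of all probes, and without scaling 24, all lower, against 24.8%. Without SIRT1 KO replicate 3, 1 passed as lower, against 7.01% of all probes in either direction. With array weights 3 passed as lower and with an eBayes trend 2, against 8.27% and 5.44% of all probes. With normexp 4 passed as lower and 1 as higher, against 10.02% of all probes. With analysis of variance 1 passed, as higher, against 2.03%. *Wdr12*, of the PeBoW complex of large-subunit assembly, read 1.14, 0.99, 1.03 and 1.09 in WT and 0.84, 0.79, 0.85 and 0.68 in SIRT1 KO hearts (fold change -0.27, limma adjusted p = 0.0710). The genotypes did not overlap. *Nhp2*, of the H/ACA particles that guide pseudouridine formation, had a fold change of -0.34 (limma adjusted p = 0.0749).

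Of 42 translation factors, 10 were higher and 32 lower, with a median of -0.08, and none passed, with 12 (28.6%) at an unadjusted p under 0.05 in limma, 2 higher and 10 lower, against the same 21.5%, 13.3% and 8.15% of all probes. With arrays scaled to their medians 5 passed and without scaling 26, all lower, against 6.91% and 24.8% of all probes. Without SIRT1 KO replicate 3, 1 passed as lower, against 7.01% of all probes in either direction. With each of cyclic loess, normexp and array weights 1 passed as higher, against 4.18%, 10.02% and 8.27% of all probes. Their smallest p-values belonged to *Eif1*, of start codon selection (fold change 0.28, limma adjusted p = 0.0875), and *Eef1a1*, which brings aminoacyl-tRNA to the ribosome (fold change 0.24, limma adjusted p = 0.0950). *Eef1a1* read 6.45, 6.42, 6.33 and 6.37 in WT and 6.71, 6.56, 6.71 and 6.57 in SIRT1 KO hearts. The hearts were separated by genotype for this gene.

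Of 22 genes of mTOR, S6 kinase and Myc signaling, 8 were higher and 14 lower, and 1 passed (4.55%, against 4.93% of all probes). Their median was -0.06. With 1 heart left out it ran from -0.09 (without WT replicate 2) to -0.04 (without WT replicate 1). Without scaling 3 were higher and 19 lower, and 7 passed, all lower, against 24.8% of all probes. With quantile normalization, median scaling or cyclic loess none passed. *Rps6ka1*, an ERK-activated kinase of S6 and other substrates, read -0.64, -0.87, -0.98 and -0.96 in WT and -0.51, -0.37, -0.40 and -0.53 in SIRT1 KO hearts. It rose by 0.41 (SE 0.0932, limma adjusted p = 0.0409), and the genotypes did not overlap. The call held in 6 of 20 other fits, among those with 1 heart left out in that without WT replicate 1, and in none of the 4 fits with another scaling. *Mlst8*, a shared subunit of both mTOR complexes, had a fold change of 0.25 (limma adjusted p = 0.127).

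The mitochondrial ribosomal proteins, encoded in the nucleus for the separate ribosome of that organelle, gave a more one-sided count. Of 78 genes, 6 were higher and 72 lower, with a median of -0.12, and none passed, with 20 (25.6%) at an unadjusted p under 0.05 in limma, all lower, against 8.15% of all probes that were lower at that p and 21.5% in either direction. *Mrps23* had the smallest p, at a fold change of -0.46 (limma adjusted p = 0.0785), followed by *Mrps6* with -0.26 (limma adjusted p = 0.0796). Without scaling 57 of the 78 passed, all lower, and with arrays scaled to their medians 5, where 24.8% and 6.91% of all probes passed. Without SIRT1 KO replicate 3, the heart that stood above the others of its genotype, 7 passed as lower, when 7.01% of all probes passed in either direction. With array weights 5 passed as lower, and 3 each with an eBayes trend and with normexp, where 8.27%, 5.44% and 10.02% of all probes passed in either direction. The difference between this list and the cytosolic one was not tested. *Fau* and *Rack1*, which encode constituents of the cytosolic ribosome outside the name rule, had fold changes of -0.07 and 0.08, and neither passed.

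**Figure D5:**
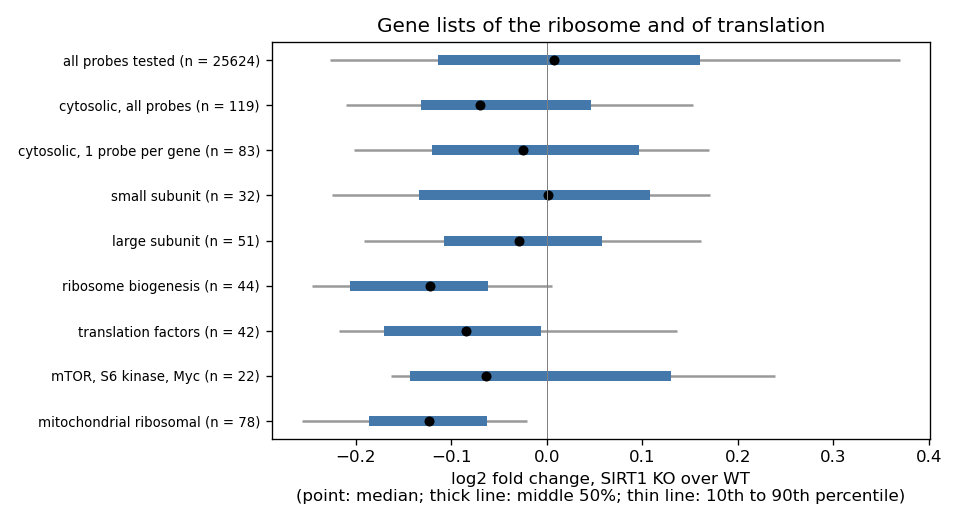
Log2 fold change (SIRT1 KO over WT) by gene list, with the median as a point, the middle 50% as a thick line and the 10th to 90th percentile as a thin line, and the number of probes in brackets. The mitochondrial ribosomal proteins and the ribosome biogenesis genes have medians of -0.12, and the cytosolic members lie between -0.07 and 0.00.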

How the data were processed

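Hearts of 4 WT and 4 SIRT1 KO embryos were compared, grouped by their labels. The authors deposited the processed intensity of every spot, background-subtracted by Agilent Feature Extraction and not scaled between arrays; the labels name version 12 of that software. A table of the whole series that the authors deposited holds the same intensity values in 100% of spots. Here log2 was taken, the 75th percentile of each array subtracted, control and outlier spots left out and spots of a probe averaged. Probe accessions were matched to RefSeq names of GRCm38.p6, which named 28223 probes (68.5%). Probes well above background on at least 4 arrays were tested by the lmFit and eBayes functions of limma 3.58.1 (R 4.3.3), with Benjamini-Hochberg adjustment over 25624 probes. The fit was tested on simulated data. Between 59.5% and 65.0% of probes per array were well above background and no spot was saturated; the number of arrays limits the precision. Named genes comprise those that passed, the 3 largest differences each way among well-measured probes, fixed paralogue pairs and role genes, and the 2 members of every other list with the smallest p. The members and lists were chosen with earlier results of these data known. Alternatives covered background, scaling, filter, test, replicate block, probe choice and each heart left out; normexp on the median signal and keeping outlier spots were chosen after seeing the data.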

Additional observations from a re-analysis of the deposited data

Results flagged for a closer look

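Among the 68 groups of 4 hearts looked at for the named member probes, 3 held 1 heart far from the others by Dixon's test, and chance alone flags about 1 in 20 groups. SIRT1 KO replicate 4 read 4.56 for *Rpl22l1*, with the nearest SIRT1 KO heart at 5.17. The same heart read 7.55 for *Rplp1*, with the nearest at 8.15. WT replicate 1 read 6.82 for *Rpl7*, with the nearest WT heart at 6.98.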

How the results depend on the processing

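The count of 3 members passing was 7 with median scaling, 57 without scaling, 6 with normexp on the median signal, 1 with no filter on dim probes, 5 with array weights, 6 with an eBayes trend, 6 at an adjusted p of 0.1 and 1 on 1 probe per gene. Of all probes 1263 passed on the main scale, and 1771, 6351, 2568, 982, 2120, 1394 and 2288 in the first 7 of these settings. The member count was 3, 2, 3, 2 and 2 with quantile normalization, cyclic loess, a filter on all 8 arrays, analysis of variance and outlier spots kept, where 1053, 1068, 1183, 519 and 1254 of all probes passed. With 1 heart left out it ran from 1 to 4, being 1 without WT replicate 1, 2, 3 or 4 or SIRT1 KO replicate 2, while that of all probes ran from 653 to 1795. The median of the members, -0.07, was -0.20 with median scaling and -0.29 without scaling, ran from -0.10 to -0.04 with 1 heart left out, and stayed below 0 in all fits. The cause of these changes was not tested. The titles share replicate numbers and the series text speaks of pairs, without saying what a number stands for. The deviations of same-numbered hearts correlated at 0.20, 0.21, 0.06 and 0.14, and each WT heart matched the SIRT1 KO heart of its own number best, as a hint from the data only. With the replicate number as a block 2 members passed, and 1169 of all probes against 1263. *Rpl7a* kept its call, and those of *Rplp0* and *Rps3a1* were lost. The other member counted is the *Rpl39l* probe, which met the filter through the WT hearts alone, so no test is read from it. It is counted likewise with median scaling, without scaling and with an eBayes trend. With the block the call of *Rps6ka1* was also lost, and *Mrps23* gained one.

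The median fold change of all probes was -0.12 with median scaling and -0.21 without scaling. The reversed values follow. Quantile normalization gave 0.0040 for *Rplp0* and 0.019 for *Rps3a1* on the probes that had not passed. Median scaling gave -0.062 for *Rps27*, -0.087 for *Rpl10*, -0.084 for *Rpl7*, -0.076 for *Rps4l*, -0.023 for *Rplp1* and -0.057 for *Rpl38*. Without scaling they were -0.15, -0.18, -0.20, -0.17, -0.12 and -0.15, with -0.069 for *Rpl39*, -0.047 for *Rplp2*, -0.025 for *Rpl11* and -0.032 for *Rps23*. Cyclic loess gave 0.0091 for *Rpl5*, 0.015 for *Rplp0* and 0.013 for *Rps3a1* on the same probes. Normexp gave 0.046 for the dim *Rpl37* probe, -0.028 for *Rpl10* and 0.0042 for *Rpl5*. *Rpl7* was -0.0060 with the replicate block, -0.028 with array weights, -0.043 with outlier spots kept and -0.074 as the median over its probes. The *Rps3a1* probe that had not passed was 0.020 with array weights, and the brighter *Rps21* probe, at -0.18, stands against 0.10 as the median over the gene's probes. With 1 heart left out the fold change ran from -0.0063 to 0.072 for *Rpl10*, -0.057 to 0.12 for *Rpl7*, -0.010 to 0.12 for *Rps4l*, -0.089 to 0.015 for *Rpl5*, -0.00079 to 0.12 for *Rpl38*, -0.11 to 0.011 for the brightest *Rpl7a* probe, -0.055 to 0.027 for the other *Rplp0* probe and -0.074 to 0.040 for the other *Rps3a1* probe.

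With 4 hearts per genotype, a missed threshold does not show equal levels, and most members have 95% intervals that include 0. The dim *Rpl39l* probe varied more between hearts than the bright members did, and whether probes also bind near-identical pseudogene copies was not tested. Normexp on the mean signal was not run, because the arrays' columns used here give the median.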
